A study of Mus musculus with 3 samples.

Results

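The members described here are 10 mouse genes that encode neuronal and general tubulins and the proteins that bind microtubules: Tuba1a, Tubb2a, Tubb2b, Tubb3, Tubb5, Tubb6, Dcx, Map1b, Map2 and Mapt. The rule lists them by name and uses no measured value, and they make up 10 of the 18193 genes that the array measured through a probe set with 1 gene symbol. The RNA was taken from the olfactory epithelium of young Tgn1-2G mice, males and females, aged 5 to 8 days after birth. In this transgenic line green fluorescent protein (GFP) is driven by regulatory sequence of Neurog1, a transcription factor gene of neuronal progenitors, and the stable protein carries over into the immature neurons that follow. Cells were sorted by fluorescence into 3 fractions, each measured on 1 array. GFP+++ held 1000000 strongly fluorescent cells, GFP+ held 1300000 weakly fluorescent cells and GFP- held 6800000 cells without fluorescence. All fractions carry the same strain, age and tissue labels and a number of 32, which is not explained, so whether they came from the same pooled animals is unknown here. By the submitters' description, GFP+++ was rich in immature neurons, GFP+ was slightly enriched in mature neurons, and GFP- held every cell type of the epithelium with immature neurons depleted.

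Microtubules are hollow polymers of alpha- and beta-tubulin, and vertebrates make several isotypes of each from separate genes. Tubb3 is the classic beta-tubulin of neurons, Tuba1a, Tubb2a and Tubb2b are abundant in developing neurons, and Tubb5 and Tubb6 are made by many cell types. Dcx, Map1b, Map2 and Mapt encode proteins that bind and stabilise microtubules, Dcx in migrating young neurons, Map1b in growing axons, Map2 mainly in dendrites and Mapt (tau) mainly in axons. Olfactory sensory neurons are renewed from basal progenitors through life, and each new neuron extends an axon to the olfactory bulb.

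Values are MAS5 signals, on a linear scale with the same global level on every array. Folds compare signals of the same probe set between arrays. Signals of different genes were also summed over marker lists, where bright genes weigh most, and that of Tuba1a was ranked within each array. Because each fraction has 1 array, no difference below has a replicate check, a test or a p-value. A signal below 104, the median over all probe sets and arrays, was treated as not distinguishable from background and raised to that floor. The pooled SD of log2 folds between probe sets of the same gene was 0.30 for GFP+++ against GFP-, 0.24 for GFP+ against GFP- and 0.30 for GFP+++ against GFP+, and it is used here as a yardstick for the array measurement alone. The comparisons share arrays with each other.

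Marker lists showed what else differed between the fractions. All 10 immature olfactory sensory neuron markers lay above a log2 fold of 0 in GFP+++ against GFP-, with a median of 0.65, and 2 of them were at least 2-fold higher. Gap43, the growth cone marker among them, gave signals of 11233, 6006 and 6395 in the order GFP+++, GFP+ and GFP-. Neurog1 itself gave 1492, 1363 and 1202. Mature neuron markers had a median of -0.47, with 1 of 9 at least 2-fold lower, and Omp, the classic mature marker, gave 5041, 10615 and 7748. Markers of other cells were mostly lower in GFP+++ than in GFP-. At least 2-fold lower were 8 of 8 immune, 6 of 8 fibroblast and vessel, and 5 of 5 glial markers. So were 4 of 5 horizontal basal and 8 of 10 sustentacular and gland markers, against 12.4% of the 12235 genes compared. Cyp2g1 and Sult1c1, of the last list, were only 1.59-fold and 1.14-fold lower. Of the 4 neurogenic progenitor markers compared, 2 (Mki67 and Top2a) were at least 2-fold lower. Neurog1 and Neurod1 stayed under 2-fold, at log2 folds of 0.31 and -0.71. Of 6 motile cilium markers 0 passed 2-fold either way. In the same order, their summed signals were 788, 19432 and 21660 for immune cells. For fibroblasts and vessels they were 5760, 29152 and 45617. For glia they were 1795, 6603 and 9966, for horizontal basal cells 357, 1490 and 2351, and for sustentacular and gland cells 33562, 55145 and 76895. By their brightest probe sets, Ptprc of immune cells, Sox10 of glia and Trp63 of basal cells were under the floor in GFP+++. Signals are given in the order GFP+++, GFP+ and GFP- from here on. The part of these cells in the member values below was not tested, and in sorted bulk samples fewer cells of a type and less RNA per cell cannot be told apart.

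The members were measured by 24 probe sets, of which 23 passed the floor on at least 1 array and 21 on every array. All 10 members passed. In GFP+++ against GFP-, 1 member of 10 (Mapt) passed 2-fold on the higher side and 0 on the lower side, against 1.92% and 12.4% (14.4% in all) of the 12235 genes compared. The median log2 fold of the members was 0.23, beside 0.01 for all genes compared. Between GFP+++ and GFP+, 2 members (Mapt and Tubb2b) were at least 2-fold higher and 0 lower, against 0.985% and 9.34% (10.3% in all) of 11881 genes, with a member median of 0.37 beside -0.02 for all genes. For GFP+ against GFP-, 0 members reached 2-fold, against 0.607% higher and 0.804% lower (1.41% in all) of 12196 genes. The member median there was -0.19 beside -0.01, and turned to 0.03 with quantile normalization. By the brightest probe set of each gene, 7 members had their highest signal in GFP+++ and 3 in GFP-, while 7 had their lowest in GFP+ and 3 in GFP-. The share of all genes with each order was not computed. Folds above 0 were found for 7 members in GFP+++ against GFP-, beside 6203 of 12235 genes. In GFP+ against GFP- they were 3, beside 5954 of 12196, and in GFP+++ against GFP+ 10, beside 5690 of 11881. For Tuba1a, Tubb5, Tubb6 and Map1b parts of this order turned with the scaling of the arrays, as given at the end.

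**Figure D1:**
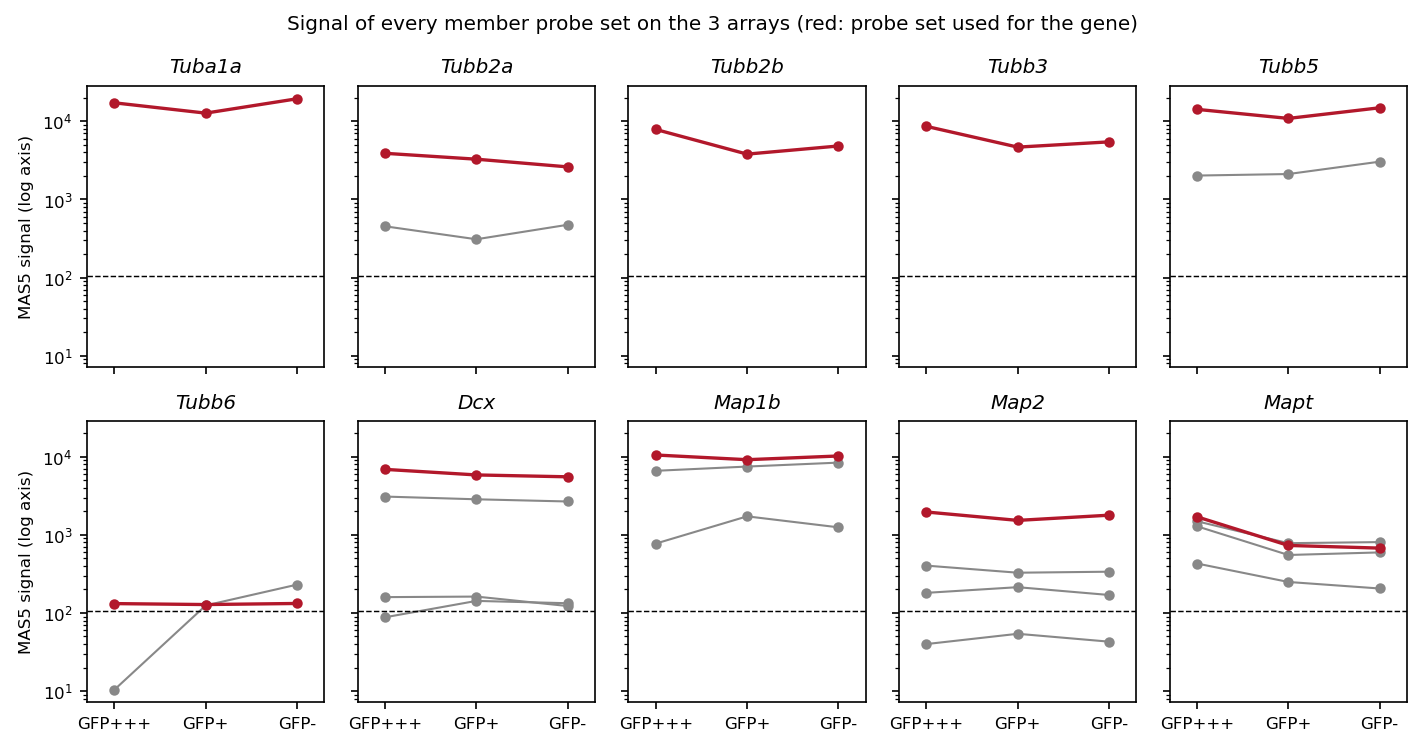
MAS5 signal (log axis) of every probe set of the 10 members on the GFP+++, GFP+ and GFP- arrays, 1 line per probe set, with the probe set used for the gene in red and the floor of 104 as a dashed line. The 4 lines of Mapt all drop from GFP+++ to the other arrays, while 1 line of Tubb6 and 1 of Dcx start below the floor in GFP+++ and lie above it on the other arrays.

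Among the neuronal tubulins, Tubb3 and Tubb2b had a common profile, highest in GFP+++ and lowest in GFP+. Tubb3 gave 8627, 4681 and 5463. Its signal in GFP+++ was 1.58-fold that in GFP- and 1.84-fold that in GFP+, and both log2 folds exceed 2 pooled SDs (2.18 and 2.95). Tubb2b gave 7879, 3808 and 4838. It was 1.63-fold above GFP- (log2 0.70) and 2.07-fold above GFP+ (log2 1.05), the second of which placed it 92nd from the top among 11881 genes. The log2 fold of GFP+ against GFP- was -0.22 for Tubb3, within the pooled SD, and -0.35 for Tubb2b, or 1.44 pooled SDs. Each of these genes had 1 probe set naming it alone, so neither profile could be checked against a second.

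Tubb2a, a close relative of Tubb2b, had probe sets that disagreed. The brighter, whose suffix _s_at marks a probe set shared by several transcripts, gave 3900.0, 3279 and 2615, a steady decline that put GFP+++ 1.49-fold above GFP-. The dimmer gave 453, 310 and 474, lowest in GFP+, with GFP+++ 1.05-fold below GFP-. Both had GFP+++ above GFP+, at log2 folds of 0.25 and 0.55. For GFP+ against GFP- they lay 0.94 apart on the log2 scale, at 0.33 and -0.62.

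Tuba1a, the main alpha-tubulin of young neurons, did not share the profile of Tubb3. It gave 17272, 12749 and 19463, so that GFP+ was lowest. Its log2 fold was -0.17 in GFP+++ against GFP-, within the pooled SD and turned by other array scalings, and 0.44 in GFP+++ against GFP+. Between GFP+ and GFP- it was -0.61, or 1.53-fold lower, with only 6.41% of genes further down on the deposited scale. With quantile normalization Tuba1a gave -0.08 there and 0.13 in GFP+++ against GFP+. Its probe set has the suffix _x_at, which marks possible binding to other transcripts, and alpha-tubulin genes are nearly alike in their coding sequence. It was also among the brightest of the array, with 8, 20 and 10 of 45101 probe sets as bright in GFP+++, GFP+ and GFP-. A further probe set for Tuba1a and another for Tubb2b name another gene as well and were not used here. Tuba1b and Tuba1c, near-identical relatives, have no value here because no probe set used names either alone.

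Of the general isotypes, Tubb5 was not higher in GFP+++ than in GFP- on the deposited scale by either probe set. The brighter gave 14243, 10909 and 14923, with GFP+++ 1.05-fold below GFP-, an order that other array scalings turned. The dimmer gave 2024, 2117 and 3048, or 1.51-fold lower. Both were lower in GFP+ than in GFP-, at log2 folds of -0.45 and -0.53, but quantile normalization brought the brighter to -0.007. For GFP+++ against GFP+ the probe sets parted, at 0.38 and -0.06.

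Tubb6 gave different pictures by probe set. The probe set with the slightly higher mean, used for the gene by rule, gave 132, 128 and 132, close to the floor and level on all arrays. The other gave 10.4, 125 and 230.3, under the floor in GFP+++ only. By that probe set the signal of Tubb6 in GFP- was at least 2.21-fold that in GFP+++ and 1.85-fold that in GFP+. That order, lowest in GFP+++ and highest in GFP-, is also the order of all 5 marker sums given above. These are the immune, fibroblast and vessel, glial, horizontal basal, and sustentacular and gland lists. The summed progenitor markers had it too, at 7282, 10649 and 13624. The part of any of these cells in the Tubb6 signal was not tested.

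The sequences upstream of 3 beta-tubulin genes are shown because their isotypes stand for the contrast above. On the deposited scale, Tubb3 was higher in GFP+++ than in GFP-, Tubb2a was higher by its brighter probe set only, and Tubb5 was not higher. Other array scalings turned the order of Tubb5 by its brighter probe set. Each run holds 250 bases before and 50 after the annotated start, 5′ to 3′ on the gene's strand, from RefSeq on GRCm38.p6. They lie at chr8:123411303-123411602 (plus strand), chr13:34077959-34078258 (minus strand) and chr17:35838252-35838551 (minus strand). Capitals mark TATAA or its reverse complement.
Tubb3: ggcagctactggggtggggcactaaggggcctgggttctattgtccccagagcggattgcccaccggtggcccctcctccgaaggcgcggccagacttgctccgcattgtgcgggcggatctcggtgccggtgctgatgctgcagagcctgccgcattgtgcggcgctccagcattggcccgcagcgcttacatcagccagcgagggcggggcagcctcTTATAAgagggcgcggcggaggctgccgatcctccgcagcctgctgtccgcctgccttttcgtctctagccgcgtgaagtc
Tubb2a: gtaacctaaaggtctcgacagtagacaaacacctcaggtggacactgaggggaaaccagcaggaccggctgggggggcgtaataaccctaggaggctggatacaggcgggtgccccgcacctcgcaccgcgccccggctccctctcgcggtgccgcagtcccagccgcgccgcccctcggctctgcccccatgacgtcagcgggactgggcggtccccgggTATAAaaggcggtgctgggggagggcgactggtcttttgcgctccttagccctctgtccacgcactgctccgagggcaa
Tubb5: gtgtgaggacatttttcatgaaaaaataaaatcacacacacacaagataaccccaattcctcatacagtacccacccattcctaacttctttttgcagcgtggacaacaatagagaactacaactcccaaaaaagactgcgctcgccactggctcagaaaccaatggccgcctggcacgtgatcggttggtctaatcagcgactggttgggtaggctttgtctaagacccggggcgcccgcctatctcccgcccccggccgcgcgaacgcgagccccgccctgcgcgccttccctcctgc

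TATAA, the core of the TATA box that positions transcription initiation, was searched on both strands after the sequences had been seen. On the gene's strand it began 30 bases before the start in Tubb3 and 29 in Tubb2a, and it was not in the Tubb5 window. In Tubb3 the reverse-strand match overlaps the forward one. Windows were searched for 7 of the members. None was available for Tubb2b and Mapt, and Tubb6 was left out of the search, so Tubb5 alone stands for the general isotypes. TATAA also lay 78 bases before the start of Tuba1a, 99 before that of Map1b and 98 or 193 before those of the 2 overlapping Dcx windows, and was not in that of Map2. Of 32851 windows of this length, 24.9% held TATAA, and 4.16% held it on the gene's strand beginning 45 to 15 bases before the start, as in Tubb2a and Tubb3. CCAAT, a box bound by the factor NF-Y, was found in the windows of Tubb3, Tubb5, Tuba1a and Dcx, with 37.4% of all windows holding it on either strand. These matches describe letters and say nothing of binding.

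Among the microtubule-associated proteins, Mapt stood out in GFP+++. Its probe set with the highest mean gave 1699, 731 and 676. GFP+++ alone was high and the other arrays were near each other. The other 3 probe sets gave 1490, 782 and 808, then 1285, 552 and 596, and then 429, 249 and 206. The fold of GFP+++ over GFP- was 2.51 by the first and 1.84, 2.16 and 2.09 by the others, so that all 4 were higher and 3 passed 2-fold. The log2 fold of 1.33 was 4.39 pooled SDs from 0 and 69th from the top among 12235 genes. Over GFP+ the fold was 2.32 by the first probe set, 49th from the top among 11881 genes, and it ranged from log2 0.78 to 1.22 over all 4. GFP+ and GFP- differed by log2 folds from -0.11 to 0.28, on both sides of 0.

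Dcx, a marker of newborn neurons in many brain regions, was only slightly graded. Its brightest probe set gave 6886, 5845 and 5532, with GFP+++ 1.24-fold above GFP-. The next gave 3089, 2851 and 2673 in the same order, 1.16-fold higher. A dim one, at 159, 162 and 123, was 1.30-fold higher, and the dimmest went the other way, at 88.0 (under the floor), 143 and 133, at least 1.28-fold lower. The log2 fold of 0.32 was about the pooled SD (1.04 of it).

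Map1b was bright on every array and its probe sets disagreed in direction. The brightest gave 10519, 9162 and 10216, with GFP+++ 1.03-fold above GFP-. Its log2 fold of GFP+++ against GFP+ was 0.20 but -0.03 with quantile normalization. The second gave 6602, 7482 and 8404, and was 1.27-fold lower. The dimmest gave 773, 1725 and 1248, 1.61-fold lower than GFP- and 2.23-fold lower than GFP+. The log2 folds of GFP+++ against GFP+ therefore ran from -1.16 to 0.20, a range of 1.36.

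Map2 differed little between GFP+++ and GFP-. Its brightest probe set gave 1960, 1531 and 1784, with a log2 fold of 0.14 between GFP+++ and GFP-. Of the others, 1 gave 403, 327 and 337, 1 gave 181, 214 and 170, and 1 was under the floor throughout (40.0, 54.1 and 42.9). All 3 measured folds of GFP+++ over GFP- were above 0, between 0.09 and 0.26, and none exceeded the pooled SD. For GFP+++ against GFP+ the brightest gave 0.36, or 1.19 pooled SDs, and the probe sets ran from -0.24 to 0.36. Between GFP+ and GFP- they ran from -0.22 to 0.33.

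**Figure D2:**
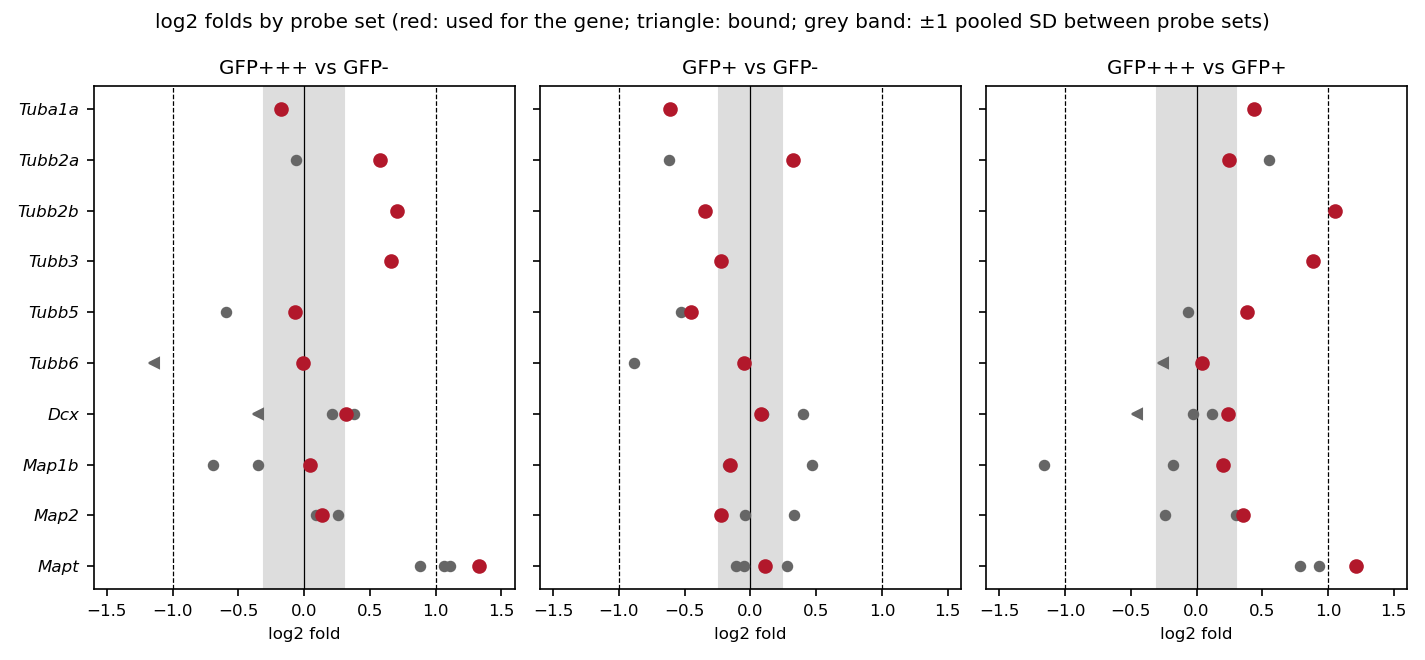
log2 fold of each member probe set in the 3 comparisons, with the probe set used for the gene in red, bounds as triangles, 2-fold as dashed lines and ±1 pooled SD between probe sets as a grey band. Mapt (1.33), Tubb2b (0.70) and Tubb3 (0.66) lie furthest right in GFP+++ against GFP-, and Map1b spreads from -0.69 to 0.04.

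The contrast between neuronal and general isotypes was then measured as a difference of log2 folds, in which a single scaling factor per array cancels, though not a quantile normalization. The mean log2 fold of Tuba1a, Tubb2a, Tubb2b and Tubb3 exceeded that of Tubb5 and Tubb6 by 0.48 in GFP+++ against GFP- and by 0.44 in GFP+++ against GFP+, and by 0.04 in GFP+ against GFP-. Quantile normalization lowered these to 0.20 and 0.29 and turned the last to -0.10. Tubb5 alone as the general isotype gave 0.51, 0.27 and 0.24. With Tubb6 taken by its other probe set, under the floor in GFP+++, the first 2 are bounds, at least 1.05 and at least 0.59. The gap in GFP+ against GFP- was then 0.46. The difference for single genes was 0.73 between Tubb3 and Tubb5, 0.77 between Tubb2b and Tubb5, and -0.11 between Tuba1a and Tubb5, in GFP+++ against GFP-. For a difference of 2 folds these came to 1.70, 1.80 and 0.25 pooled SDs, so none of these 3 pairs differed by more than 2 in that comparison. Elsewhere Tubb2a, by its brighter probe set, lay above Tubb5 by 0.78 in GFP+ against GFP-. Tubb2b lay above Tubb6 by 1.01 in GFP+++ against GFP+, and both differences were more than 2 pooled SDs. By its dimmer probe set, Tubb2a was at -0.62 in GFP+ against GFP-, below both Tubb5 probe sets (-0.45 and -0.53). The neuronal isotypes differed as much among themselves: Tuba1a lay 0.88 below Tubb2b, 2.05 pooled SDs. Mapt lay above every other microtubule-associated member, by log2 differences of 1.01 over Dcx, 1.19 over Map2 and 1.29 over Map1b, each at least 2.37 pooled SDs. Of 45 member pairs, 7 differed by more than 2 pooled SDs in GFP+++ against GFP-, 4 in GFP+ against GFP- and 7 in GFP+++ against GFP+. Most of these pairs held Mapt in both comparisons with GFP+++, and Tuba1a in GFP+ against GFP-. The share over pairs of all genes was not computed, so the counts do not set the members apart.

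**Figure D3:**
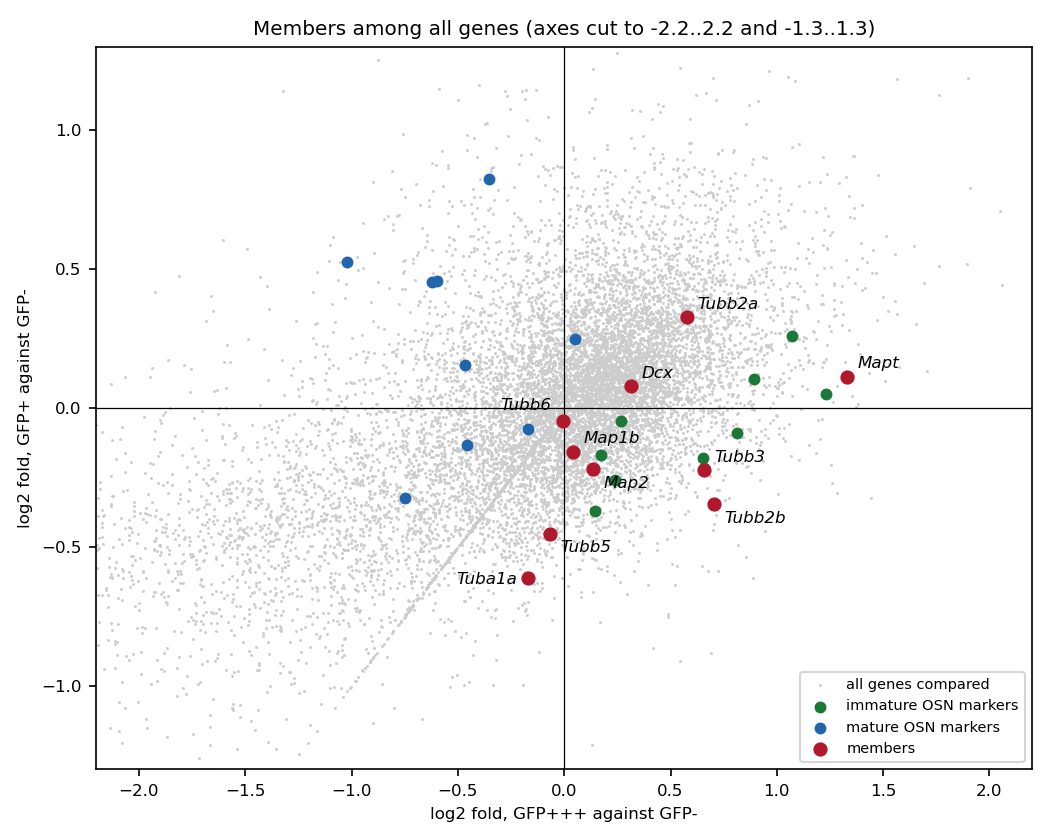
log2 fold of GFP+ against GFP- (y axis) over that of GFP+++ against GFP- (x axis) for all genes compared (grey), the members (red) and markers of immature (green) and mature (blue) olfactory sensory neurons (OSN), with some outer genes beyond the axes and the diagonal line made of genes under the floor in both GFP positive fractions. Mapt (1.33, 0.11), Tubb3 (0.66, -0.22) and Tubb2b (0.70, -0.35) lie furthest right of the members, and Tuba1a (-0.17, -0.61) and Tubb5 (-0.07, -0.45) lie below the centre. Immature markers spread from near the centre to the right, and other members lie near some of them.

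The place of each member among all genes was set by these folds of GFP+++ and GFP+ over GFP-, and the nearest genes were sought among 7129 others above the floor on every array and with a mean signal of at least 5 floors. With 3 arrays, 2 folds fix a profile, so close neighbours are common where genes crowd. Tubb3 lay nearest to Gng8, a G protein gamma subunit of immature olfactory neurons, at a distance of 0.01 log2 units, followed by Scai and Mex3d, and 17 genes lay within 0.1. Gng8 gave 6192, 3380 and 3928. Tubb2b had 3 genes within 0.1, which were Lrrc75a, Serf1 and Cacng4. Mapt had 2, Tmem242 and Prph, the latter encoding the neuronal intermediate filament protein peripherin, and Fam189a1 came next at 0.11. Prph gave 3404, 1423 and 1278. The crowded profiles were those of Dcx with 411 genes within 0.1 (nearest Bcl2l1, Wrap73 and Vmac), Map1b with 303 (Dnajc2, Cdk16 and Clstn2) and Tubb5 with 64 (Ccni, Actr3 and Dpysl2).

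Other tubulin genes gave a mixed picture. Of 14 listed, 10 had a probe set naming them alone and 7 passed the floor in GFP+++ or GFP-, and the median log2 fold of those was -0.13 in GFP+++ against GFP-. Tubg2, a gamma-tubulin of the nucleation complex, was the 1 at least 2-fold higher, with 391, 261 and 167 (2.33-fold), and Tubg1 gave 1321, 950 and 863 (1.53-fold). Tuba4a, an alpha-tubulin abundant in mature neurons and muscle, gave 4880.1, 7164 and 6554, lowest in GFP+++, and both of its probe sets above the floor lay between -0.43 and -0.35. Tubb4b, a broadly made beta-tubulin also found in cilia, gave 11147, 10616 and 12193, within 1.15-fold on every array pair. Tubb4a was near the floor, at 142, 140 and 117, and Tuba3b, Tuba8 and Tubb1 were under it on all arrays.

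Of 37 other microtubule-associated proteins 36 were on the array and 34 were compared in GFP+++ against GFP-, with a median of 0.12. Of them, 1 was at least 2-fold higher and 2 lower, against the 1.92% and 12.4% of all genes. Tppp3, a tubulin polymerization promoting protein, gave 2446 in GFP+++ and 2195 in GFP+ but 886 in GFP-, 2.76-fold and 2.48-fold higher in the fluorescent fractions. Tpx2, a spindle assembly factor, gave 198, 415 and 575, and Nde1, which acts with dynein in dividing progenitors, gave 111, 185 and 244. Those were folds of 2.90 and 2.21 below GFP-, beside Mki67, a marker of dividing cells, at 753, 1758 and 2444. Map6, which stabilises neuronal microtubules against cold, gave 2937, 1821 and 1710, 1.72-fold higher in GFP+++. Dclk1, a kinase related to Dcx, gave 2817, 1888 and 2315. Map4, the general relative of Map2 and Mapt, gave 1175, 733 and 840 (1.40-fold), and its 3 probe sets above the floor ranged from 0.47 to 1.40 on the log2 scale. Map1a, the partner of Map1b that is abundant in adult neurons, gave 371, 493 and 351. This probe set was highest in GFP+, with a log2 fold of 0.49 over GFP-, and its other gave -0.08.

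Genes for tubulin folding, modification and severing numbered 33, of which 29 were on the array and 28 compared. In GFP+++ against GFP- their median was 0.17, and 20 were above 0, beside 6203 of all 12235 genes compared. Only Ttll11, a tubulin polyglutamylase, reached 2-fold, at 2256, 1581 and 1112 (2.03-fold), beside 1.92% of all genes higher. Its probe sets ranged from 0.26 to 1.02 on the log2 scale. Between GFP+ and GFP-, Tppp3 was the 1 gene of these 3 lists past 2-fold, and in GFP+++ against GFP+ Tpx2 was (2.09-fold lower).

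**Figure D4:**
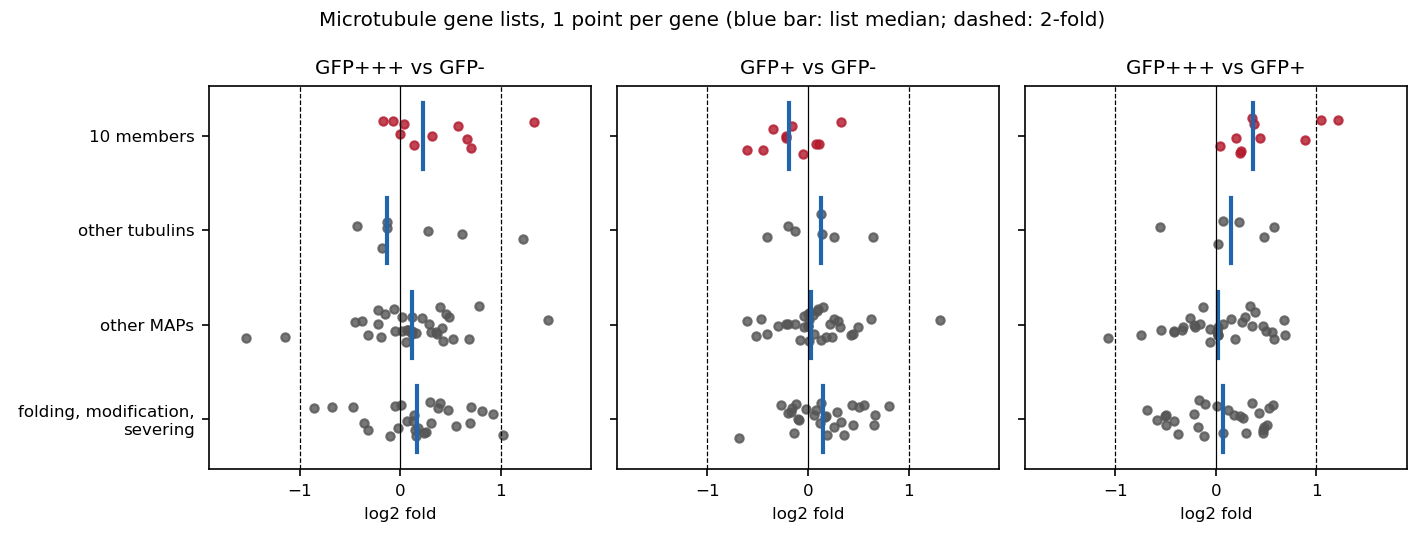
log2 fold of each gene of the 10 members and of the 3 other microtubule lists in the 3 comparisons, 1 point per gene, with blue bars at list medians and dashed lines at 2-fold. In GFP+++ against GFP- the medians are 0.23 for the members, -0.13 for other tubulins, 0.12 for other microtubule-associated proteins (MAPs) and 0.17 for folding, modification and severing genes.

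The direction of weak folds depended on how the arrays were put on a common scale. The deposited signals share a trimmed mean, but their medians were 88.2, 107 and 118. Equal medians would add 0.42 to every log2 fold of GFP+++ against GFP-, 0.14 in GFP+ against GFP- and 0.28 in GFP+++ against GFP+, and the median of all genes compared in GFP+++ against GFP- would then be 0.42. On that scale Tuba1a, Tubb5 and Tubb6 turned to 0.24, 0.35 and 0.41 in GFP+++ against GFP-, still below that median of all genes. Quantile normalization also turned them, to 0.04, 0.10 and 0.37. The log2 fold of Tubb6 in GFP+ against GFP- turned from -0.05 to 0.09 with equal medians and 0.08 with quantile normalization. That of Map1b turned from -0.16 to 0.15 with quantile normalization. In the same comparison quantile normalization brought Tuba1a from -0.61 to -0.08 and Tubb5 from -0.45 to -0.007. Mapt, Tubb2b and Tubb3 were higher in GFP+++ than in either other fraction under every scaling tried. With equal medians, 3, 0 and 3 members were at least 2-fold higher in GFP+++ against GFP-, GFP+ against GFP- and GFP+++ against GFP+, beside 9.27%, 1.09% and 3.47% of genes. With quantile normalization they were 1, 0 and 1, beside 3.01%, 0.717% and 1.49%. At a 1.5-fold rule on the deposited scale, 3, 0 and 3 members were higher, beside 9.31%, 4.67% and 6.39% of genes, and those were Mapt, Tubb2b and Tubb3 both times. By the same rule 0, 1 and 0 members were lower, beside 20.5%, 7.13% and 18.2%, and the 1 was Tuba1a.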

How the data were processed

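The authors deposited 1 signal intensity per probe set and array, made with MAS5 per the submitters' processing notes; its version and scaling target were not given in the sources used here. From the values, the trimmed mean (2% from each end) was 500.0 on each array. Of 45101 probe sets on the Affymetrix Mouse Genome 430 2.0 design, 34945 noncontrol ones carried 1 symbol, 932 several and the rest none or are controls (64). A gene takes the probe set whose mean over the 3 arrays is highest. A log2 fold is taken after raising signals to the floor, the pooled median. A gene is called at 2-fold if above the floor on at least 1 array. A fold with 1 array under the floor is a bound, written as at least that many fold.

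With 1 array per fraction there is no test, and their small number sets the precision. The pooled SD between probe sets (4633 genes with several for GFP+++ against GFP-) holds nothing of animals, sorts or labelling. All calculations used Python 3.11.15 with pandas 2.3.3, and the steps were tested on simulated data. Alternatives were 2 other scalings, another floor and none, the median over probe sets, probe sets without the suffixes _x_at, _s_at and _a_at, and a fold of 1.5.

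Members and lists were chosen with earlier results of these data known. The named genes were the members with all probe sets, genes of the 3 microtubule lists past 2-fold in any comparison with 9 relatives fixed by name, the 3 genes nearest to each of 6 members, and markers. Tubg1, Prph, Neurod1, Top2a, Cyp2g1, Sult1c1 and the markers under the floor were named after their values were seen.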

Additional observations from a re-analysis of the deposited data

How the results depend on the processing

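Each alternative was set against the spread of 1 pooled SD between probe sets, or for counts against a factor of 1.5, and the cause of a move was not tested unless named. In GFP+++ against GFP- the number of members at least 2-fold apart was 1, and it became 3 with equal array medians (9.27% of all genes were then at least 2-fold higher), 3 at a 1.5-fold rule (9.31% higher) and 2 with Tubb6 by its other probe set. In GFP+ against GFP- it went from 0 to 1 at the 1.5-fold rule, by Tuba1a (7.13% of genes lower). In GFP+++ against GFP+ it went from 2 to 1 with quantile normalization, where Tubb2b lay under 2-fold. The member median in GFP+++ against GFP- was 0.64 with equal array medians, a shift that every gene shares, and 0.14 without suffixed probe sets. With quantile normalization it was 0.22 in GFP+++ against GFP+ (0.37 as deposited) and turned to 0.03 in GFP+ against GFP-. The gap between neuronal and general isotypes in GFP+++ against GFP- was 0.20 with quantile normalization (0.48 as deposited). It was at least 0.81 with the median over probe sets and at least 1.05 with Tubb6 by its other probe set. Both are bounds because that probe set was under the floor in GFP+++. With that probe set the gap in GFP+ against GFP- was 0.46. In GFP+++ against GFP+ it was 0.29 with quantile normalization, 0.27 with a floor at the 65th percentile (0.44 as deposited) and 0.84 without suffixed probe sets, where Tuba1a has no value. In GFP+ against GFP- that gap turned to -0.10 with quantile normalization and -0.11 without suffixed probe sets. Use of the other Tubb6 probe set, and of Tubb5 alone, was chosen after seeing the data. Of the member folds, 26 of 30 kept their direction with equal medians, 24 of 30 with quantile normalization, 27 of 27 with a floor at the 65th percentile, 30 of 30 with no floor, 26 of 30 with the median over probe sets and 24 of 27 without suffixed probe sets. No paired analysis was possible because each fraction has 1 array. Signals near the floor, as for Tubb6, give no reliable ratio.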
